A study of Mus musculus with 6 samples.

Results

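The interferon and antigen presentation genes examined here are 9 genes of the mouse retina: *B2m*, *H2-K1* and *H2-D1* of MHC class I, the transcription factors *Stat2*, *Irf9* and *Irf7*, and the antiviral genes *Ifit1*, *Ifit3* and *Bst2*. They were taken by gene symbol from a list of interferon response and MHC class I genes, which was drawn up with earlier results of these data known. They are 9 of the 31169 genes in the table, and all 9 passed the filter on low counts that left 17707 genes to test. The deposited sequencing covers the poly(A) transcripts of 3 saline-injected and 3 microbead-injected retinas, each taken whole, of C57BL/6 mice (males, per the study's methods). The paper reports a larger number of retinas in each group for its RNA sequencing. At 1 month of age, each eye had received either saline or polystyrene microbeads 15 μm in diameter in the anterior chamber. Per the study's methods, injections were bilateral, with the same injection in both eyes of a mouse. The beads block the drainage of aqueous humor, which raises intraocular pressure (IOP) and serves as a model of glaucoma. All retinas were taken 4 weeks after the injection, at 2 months of age. The sample records give an injection volume of 1 μl, and the study's methods give a larger one.

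MHC class I molecules present short peptides, mostly from proteins made inside the cell, to CD8 T cells. Each is a heavy chain, such as the product of *H2-K1* or *H2-D1*, bound to the invariant light chain β2-microglobulin, the product of *B2m*, which the heavy chain needs to fold and to reach the cell surface. Type I interferons signal through a receptor that activates Stat2. Stat2 acts with Irf9 in the factor ISGF3, which binds the interferon-stimulated response element (ISRE) in the promoters of antiviral genes, and Irf7, itself induced by interferon, drives further interferon production. The healthy retina is an immune-privileged tissue with little class I on its neurons, and its main resident immune cells are microglia.

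The promoters are shown because the ISRE, through which type I interferon acts, is found in the promoters of antiviral genes. The 250 bases before each RefSeq transcription start (GRCm38.p6) were searched on both strands for the ISRE letters GAAANNGAAA, which read TTTCNNTTTC on the other strand. The letters were present in 5 of the 9 genes, *B2m*, *Stat2*, *Ifit1*, *Ifit3* and *Bst2*, and in 3.46% of the 27025 genes with a promoter in the same table. No match was found in the windows of *H2-K1*, *H2-D1*, *Irf9* or *Irf7*, which says only that these letters are not in these windows. The stretches that hold the matches are given below 5′ to 3′ on the strand of the gene, with the ISRE letters in capitals, and the near copy *Ifit3b* is set beside *Ifit3*.
B2m (chr2:122147528-122147577, + strand): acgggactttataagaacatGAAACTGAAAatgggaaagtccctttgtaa
Stat2 (chr10:128270256-128270305, + strand): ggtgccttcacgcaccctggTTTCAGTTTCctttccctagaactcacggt
Ifit1 (chr19:34640765-34640833, + strand): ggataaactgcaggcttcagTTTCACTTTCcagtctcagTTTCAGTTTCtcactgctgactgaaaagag
Ifit3 (chr19:34583353-34583436, + strand): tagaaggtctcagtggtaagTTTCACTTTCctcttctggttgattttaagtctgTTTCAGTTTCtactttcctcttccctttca
Ifit3b (chr19:34607749-34607832, + strand): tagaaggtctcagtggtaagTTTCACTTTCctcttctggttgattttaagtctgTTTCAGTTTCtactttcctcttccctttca
Bst2 (chr8:71537567-71537622, - strand): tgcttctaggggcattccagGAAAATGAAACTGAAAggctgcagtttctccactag

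*B2m* held 1 match, 139 to 130 bases before its start, and *Stat2* held 1, 222 to 213 bases before. *Ifit1*, *Ifit3* and *Bst2* each held 2, which in *Bst2* overlap in one run from 130 to 115 bases before the start. The *Ifit3* and *Ifit3b* stretches are identical over their 84 bases. The gamma-activated site, TTCNNNGAA, the element through which interferon gamma acts, was found in the window of 1 of the 9, *Bst2*, where it overlaps the ISRE run, and in 8.13% of all genes with a promoter. A match is a description of letters and not evidence of binding in these retinas.

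Saline replicate 1 stood apart from the other saline libraries in these genes, so the fitted change of each gene is given with and without it. Its level was above both other saline libraries in 9 of the 9 genes and more than 2-fold above both in 6 of the 9, where 3.29% of all tested genes were. It was the highest of the 6 libraries in 7 of the 9 genes, where 16.4% of all tested genes were. Because it was the highest saline library in all 9, leaving it out raises every fitted change by construction. The standard error was also smaller without it in each of the 9 genes. The library was singled out on these same values, so p-values and calls without it are descriptions and not independent tests. Library totals ran from 36085737 to 46481382 counts in saline and from 13574949 to 19834366 in microbead retinas, and mitochondrial transcripts took 3.19 to 3.57% of counts in saline and 8.9 to 10.6% in microbead libraries. Library names fall into 2 series, one for each group, so that the effect of the series and that of the injection cannot be told apart. The sample records do not state whether each retina came from a separate animal, so p-values measure the spread between these samples. As injections were bilateral, retinas of the same group could come from the same mouse.

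**Figure D1:**
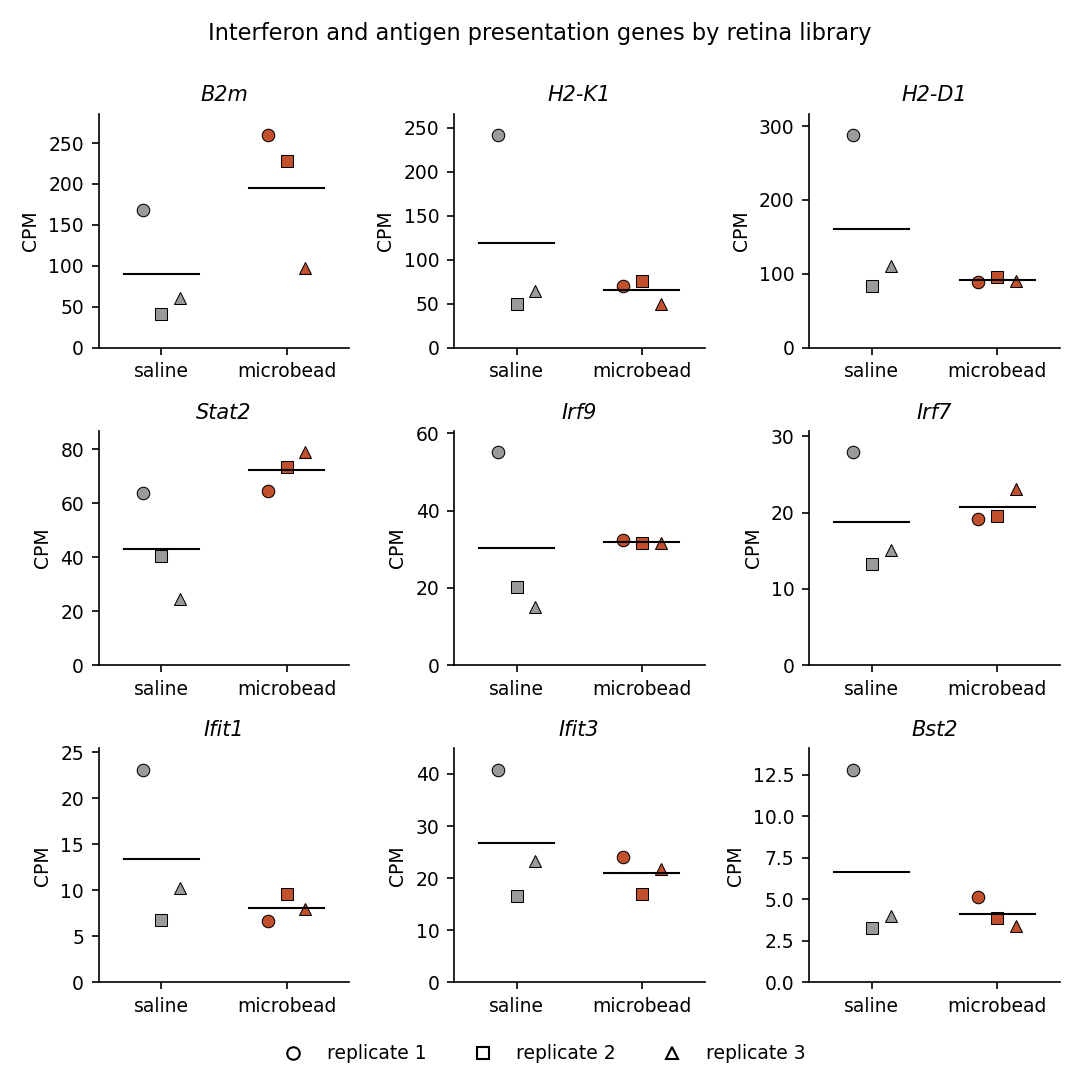
Each panel plots the level of 1 gene (vertical axis, counts per 1000000 of the TMM-scaled library, CPM, from 0) in the 3 saline (grey) and 3 microbead (orange) libraries, with a horizontal line at each group mean and a symbol for each replicate number. Saline replicate 1 (grey circle) is the highest of the 6 libraries in every panel except *B2m* and *Stat2*.

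Between saline and microbead retinas, 0 of the 9 genes passed an adjusted p-value of 0.05 with edgeR's quasi-likelihood test over all tested genes, where 12.8% of all tested genes did. DESeq2 and limma-voom also called 0 of the 9, where they called 20.2% and 12.5% of all tested genes, and 1 of the 9, *Stat2*, had an unadjusted p-value under 0.05 with edgeR, where 31.4% of all tested genes did. The fitted change was positive in 4 genes and negative in 5, and its median over the 9 was -0.36 on the log2 scale, beside -0.03 for all tested genes. Without saline replicate 1, *B2m*, *Stat2* and *Irf9* passed, 3 of the 9, where 15.1% of all tested genes did. As that library was singled out on the values of these genes, this count is a description only. The change was then positive in 7 of the 9, with a median of 0.20 beside -0.01 for all tested genes.

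**Figure D2:**
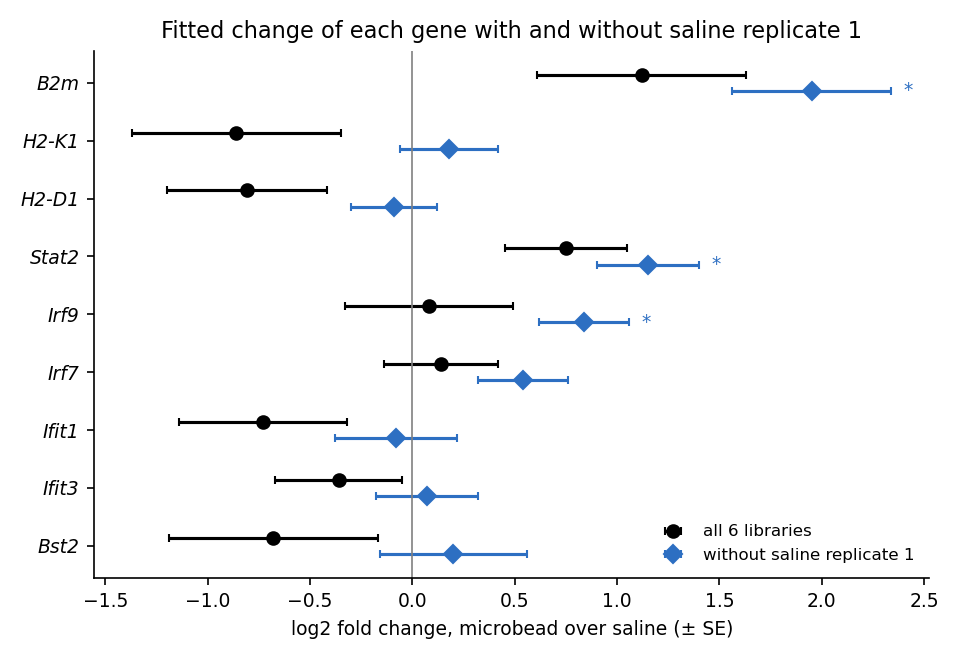
The horizontal axis is the log2 fold change of microbead over saline retinas from edgeR for each gene, with bars of 1 standard error, fitted on all 6 libraries (black circles) and without saline replicate 1 (blue diamonds), and an asterisk marks an adjusted p-value under 0.05. The highest saline library is the one left out, so the estimates shift to the right by construction. Those of *B2m* (1.95), *Stat2* (1.15) and *Irf9* (0.84) then passed, which is a description and not an independent test.

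*B2m* (ENSMUSG00000060802.8; chromosome 2, 122147686 to 122153083, + strand, GRCm38, GENCODE vM21) encodes the light chain that all class I heavy chains share. Its level was 168, 40.6 and 60.2 CPM in saline replicates 1 to 3 and 260, 228 and 97.8 CPM in the microbead replicates. The lower pair of saline libraries lay under all microbead libraries, and saline replicate 1 lay between microbead replicates 3 and 2, so that the groups overlapped. The means were 89.6 ± 68.6 CPM (SD, n = 3) and 195 ± 85.8 CPM (n = 3), a log2 fold change of 1.12 (standard error, SE, 0.51, edgeR adjusted p = 0.167). Without saline replicate 1, *B2m* was 3.86-fold higher in microbead retinas (log2 fold change 1.95, SE 0.39, edgeR adjusted p = 0.0138). This was the only fit with a library left out in which it passed. *B2m* overlaps *Patl2*, on the opposite strand, at 0 exon bases, and none of its transcripts' 31-base stretches occur in annotated transcripts of another gene (0%).

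*H2-K1* (ENSMUSG00000061232.15; chromosome 17, 33996017 to 34000347, - strand) encodes the classical class I heavy chain H-2K. Its level was 242, 50.1 and 65 CPM in the saline replicates and 70.7, 76.3 and 49.5 CPM in the microbead replicates. Saline replicate 1 was 4.21 times the mean of the other saline libraries, the largest such ratio among the 9 genes, and the other 5 libraries lay close together. On the log2 scale the fitted change was -0.86 (SE 0.51, edgeR adjusted p = 0.281), and 0.18 (SE 0.24, adjusted p = 0.634) without saline replicate 1. The sign of the *H2-K1* estimate thus rested on that 1 library.

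*H2-D1* (ENSMUSG00000073411.11; chromosome 17, 35262730 to 35267499, + strand) encodes the second classical heavy chain of this strain, H-2D. Its level was 288, 83.9 and 111 CPM in the saline replicates and 89.5, 96.1 and 89.8 CPM in the microbead replicates. All microbead values lay between saline replicates 2 and 3, and saline replicate 1 was 2.95 times the mean of those 2. edgeR gave a log2 fold change of -0.81 (SE 0.39, adjusted p = 0.189), and -0.09 (SE 0.21, adjusted p = 0.799) without that library. Class I heavy chain genes resemble each other. Of *H2-K1* transcripts, 22.8% of the 31-base and 0.957% of the 100-base stretches occur in annotated transcripts of other genes, against 26.9% and 3.59% for *H2-D1*. The shared 31-base stretches are most often in each other's transcripts and in those of *H2-Q* genes. Reads were 100 bases in length and paired, and the handling of multi-mapping reads is not given in the sources used here, so that the split between these genes is uncertain.

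The ratio of light to heavy chain transcripts within a library does not depend on the scaling of libraries, nor on how reads are split between *H2-K1* and *H2-D1*, although reads shared with *H2-Q* genes still bear on it. This ratio was formed after the values were seen and is a description with no test. The CPM of *B2m* over the summed CPM of *H2-K1* and *H2-D1* was 0.317, 0.303 and 0.342 in the saline replicates and 1.62, 1.32 and 0.702 in the microbead replicates. Saline replicate 1, which was high in all 3 genes, had a ratio like those of the other saline libraries, and the groups did not overlap. By level, 37.8% of all tested genes did not overlap either. How many ratios between other genes separate the groups was not computed. The heavy chain sum was 530, 134 and 176 CPM in saline and 160, 172 and 139 CPM in microbead retinas, so that the groups overlapped in the heavy chains. Microbead replicate 3 had both the lowest *B2m* level and the lowest ratio of the microbead libraries.

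**Figure D3:**
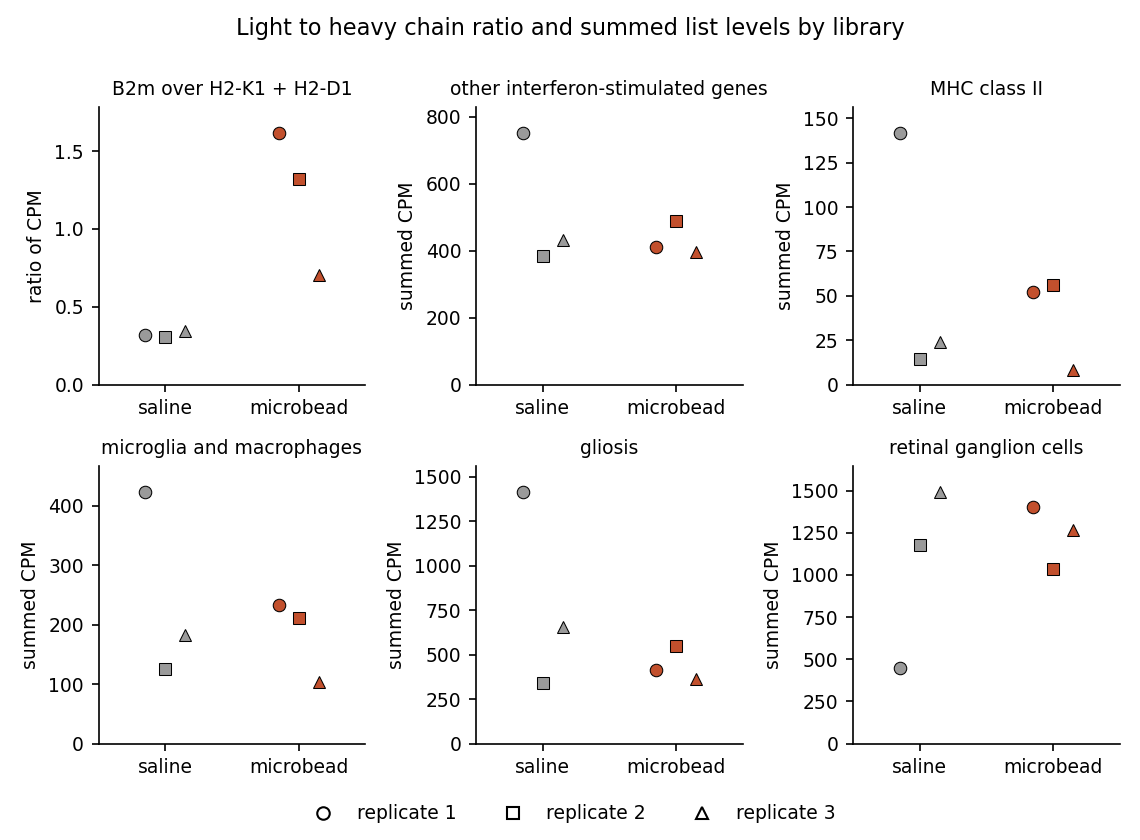
The first panel plots the ratio of *B2m* CPM to the summed CPM of *H2-K1* and *H2-D1*, and the others plot the summed CPM of a gene list (all vertical axes from 0), in each of the 3 saline (grey) and 3 microbead (orange) libraries with a symbol per replicate number. The ratio is 0.303 to 0.342 in saline and 0.702 to 1.62 in microbead retinas, while saline replicate 1 is highest in the interferon-stimulated, MHC class II, microglia and gliosis lists and lowest in the ganglion cell list.

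Of the transcription factors, *Stat2* (ENSMUSG00000040033.15; chromosome 10, 128270559 to 128292849, + strand) encodes the Stat that is specific to the type I and type III interferon pathways. Its level was 63.9, 40.4 and 24.6 CPM in the saline replicates and 64.6, 73.5 and 78.8 CPM in the microbead replicates. All microbead libraries lay above all saline libraries, although saline replicate 1 and microbead replicate 1 were nearly equal. *Stat2* was the only 1 of the 9 genes without overlap, where 37.8% of all tested genes had none. The fitted log2 fold change was 0.75 (SE 0.30, unadjusted p = 0.0326, edgeR adjusted p = 0.123). Without saline replicate 1, *Stat2* was 2.22-fold higher in microbead retinas (log2 fold change 1.15, SE 0.25, edgeR adjusted p = 0.0177). *Stat2* passed in no other fit with 1 library left out (edgeR adjusted p up to 0.29).

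*Irf9* (ENSMUSG00000002325.14; chromosome 14, 55603571 to 55610030, + strand) encodes the DNA-binding partner of Stat2 in ISGF3. Its level was 55.1, 20.3 and 15.1 CPM in the saline replicates and 32.4, 31.5 and 31.6 CPM in the microbead replicates. The microbead libraries were nearly equal to each other (SD 0.489 CPM), and lay below saline replicate 1 and above the others. Its fitted log2 fold change was 0.08 (SE 0.41, edgeR adjusted p = 0.921) on all libraries. It was 0.84 (SE 0.22, adjusted p = 0.0316), a 1.79-fold higher level, without saline replicate 1, the only fit with 1 library left out in which *Irf9* passed. *Irf9* shares 123 exon bases (2.28% of its exon length) with *Rnf31* on the same strand, whose reads cannot be separated there.

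*Irf7* (ENSMUSG00000025498.15; chromosome 7, 141262706 to 141266481, - strand) encodes the factor that amplifies type I interferon transcription. Its level was 27.9, 13.3 and 15.1 CPM in the saline replicates and 19.2, 19.6 and 23.1 CPM in the microbead replicates. As for *Irf9*, all microbead libraries lay below saline replicate 1 and above the other saline libraries. On the log2 scale the fitted change was 0.14 (SE 0.28, edgeR adjusted p = 0.772), and 0.54 (SE 0.22, adjusted p = 0.12) without saline replicate 1, so that *Irf7* did not pass in either fit. *Irf7* shares 45 exon bases (1.19%) with *Phrf1* on the opposite strand.

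The antiviral genes gave no call in either fit. *Ifit1* (ENSMUSG00000034459.8; chromosome 19, 34640871 to 34650009, + strand) encodes a protein that binds viral RNA lacking the host cap methylation. Its level was 23.1, 6.74 and 10.3 CPM in the saline replicates and 6.64, 9.6 and 7.99 CPM in the microbead replicates. Apart from saline replicate 1, all libraries lay within a narrow range. edgeR gave a log2 fold change of -0.73 (SE 0.41, edgeR adjusted p = 0.261), and -0.08 (SE 0.30, adjusted p = 0.881) without saline replicate 1.

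*Ifit3* (ENSMUSG00000074896.3; chromosome 19, 34583531 to 34588731, + strand) encodes a partner of Ifit1 in the same family of RNA-sensing proteins. Its level was 40.8, 16.5 and 23.2 CPM in the saline replicates and 24.1, 16.9 and 21.7 CPM in the microbead replicates. The values of the groups were interleaved apart from saline replicate 1. The fitted log2 fold change was -0.36 (SE 0.31, edgeR adjusted p = 0.471), and 0.07 (SE 0.25, adjusted p = 0.865) without that library. Of the 31-base stretches of *Ifit3*, 61.8% occur in annotated transcripts of another gene, as do 31.7% of the 100-base stretches. *Ifit3b* is the main partner, so that the level of *Ifit3* alone is uncertain. *Ifit3b* was at 14.7, 8.77 and 11.3 CPM in saline and 10.8, 8.38 and 7.73 CPM in microbead retinas (log2 fold change -0.37, SE 0.27, edgeR adjusted p = 0.375). The estimate of *Ifit3b* was -0.16 without saline replicate 1 (adjusted p = 0.722).

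*Bst2* (ENSMUSG00000046718.8; chromosome 8, 71534255 to 71537456, - strand) encodes tetherin, which holds budding enveloped viruses at the cell surface. Its level was 12.8, 3.26 and 3.97 CPM in the saline replicates and 5.15, 3.9 and 3.38 CPM in the microbead replicates. *Bst2* had the lowest counts of the 9 genes, with 52 in microbead replicate 3, so that none of the 9 was near the limit of detection. Its fitted log2 fold change was -0.68 (SE 0.51, edgeR adjusted p = 0.388), and 0.20 (SE 0.36, adjusted p = 0.739) without saline replicate 1.

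Per kilobase of exon, the class I genes were the most abundant of the 9 in every library. The length used merges the exons of all annotated transcripts (1 for *B2m*, 4 for *H2-D1* and 16 for *H2-K1*), so that the order depends in part on the annotation. In saline retinas, *B2m* was at 104 ± 79.7 CPM per kb (SD, n = 3), *H2-D1* at 62.4 ± 42.9 and *H2-K1* at 40.6 ± 36.4, and the order *B2m*, *H2-D1*, *H2-K1* held in 6 of 6 libraries. *Ifit3* (15.4 ± 7.19), *Bst2* (7.39 ± 5.89), *Stat2* (7.25 ± 3.34), *Irf9* (5.61 ± 4.04), *Ifit1* (5.04 ± 3.24) and *Irf7* (4.96 ± 2.11) followed, and neighbours in this order differed by less than the larger of their SDs, except *Ifit3* and *Bst2*. In microbead retinas, *B2m* was at 227 ± 99.8 CPM per kb, *H2-D1* at 35.6 ± 1.45 and *H2-K1* at 22.3 ± 4.8, each apart from the next by more than either SD. *Stat2* (12.2 ± 1.21) and *Ifit3* (12 ± 2.1) came next and were not apart from each other, *Irf9* (5.91 ± 0.0909), *Irf7* (5.47 ± 0.57) and *Bst2* (4.59 ± 1.01) followed below them, each within the larger SD of the next of these 3, and *Ifit1* (3.04 ± 0.559) was lowest and apart from *Bst2*.

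The rest of the pathway was read from 7 lists, which leave out the 9 genes and hold 134 tested genes in all. Of these, 4 were higher and 3 lower in microbead retinas (5.22%, beside 12.8% of all tested genes), with a median log2 fold change of -0.33. Without saline replicate 1, 7 were higher and 4 lower of 129 tested (8.53%, beside 15.1%), and the median was 0.19. Saline replicate 1 was more than 2-fold above both other saline libraries in 55 of the 134 (41%, beside 3.29% of all tested genes).

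Of the interferon genes themselves, 3 of the 21 listed were in the table, with at most 3 counts in every library, and 0 could be tested. The receptor chains were expressed in all libraries and 0 of the 4 for type I and type II interferon passed: *Ifnar1* was at 49.4 to 55.1 CPM in saline and 43.3 to 54.1 CPM in microbead retinas, and *Ifnar2* at 8.33 to 10.5 and 8.06 to 10.3 CPM. Among 25 tested receptor and signalling genes, 2 were higher, 2 lower and 21 did not pass (median -0.17, and 0.02 with 2 higher and 3 lower without saline replicate 1). *Irf3*, the constitutive factor that starts interferon beta transcription after viral sensing, was at 64.7, 41.9 and 26 CPM in saline and 103, 106 and 133 CPM in microbead retinas, with no overlap. Its log2 fold change of 1.37 (SE 0.30, edgeR adjusted p = 0.0232) became 1.74 (adjusted p = 0.00664) without saline replicate 1. *Irf2*, which competes with Irf1 for the same element and mostly represses it, was at 33.5, 25.1 and 18.1 CPM in saline and 48.4, 51.7 and 46.7 CPM in microbead retinas, and rose by 0.94 (SE 0.23, adjusted p = 0.0314). *Irf2bp1*, a co-repressor that binds Irf2, was at 103, 95.9 and 117 CPM in saline and 58.2, 45.9 and 72.2 CPM in microbead retinas, and fell by 0.84 (adjusted p = 0.0293). The 2 groups did not overlap for any of these 3 genes, which the rule for naming them required, so it adds nothing to the calls. With 1 library left out, *Irf3* passed without saline replicate 1 or 3, and missed the threshold without saline replicate 2 or any 1 microbead library (adjusted p = 0.0564 to 0.106 from edgeR). *Irf2* (0.0124 to 0.107) and *Irf2bp1* (0.0341 to 0.0905) passed only without saline replicate 1 among these fits. The fourth call was *Socs3*, an inhibitor of cytokine receptor signalling, named here after its values were seen, at 28.3, 6.7 and 228 CPM in saline and 6.69, 8.16 and 5.52 CPM in microbead retinas (log2 fold change -3.69, adjusted p = 0.0464). Its log2 fold change was -1.36 (adjusted p = 0.101) without saline replicate 3, and its adjusted p was 0.124 to 0.176 without any 1 microbead library.

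Of 18 nucleic acid sensing genes, 1 was higher, 0 lower and 17 did not pass (median -0.13). When saline replicate 1 was left out, 0 of 17 passed and the median was 0.38. The call was *Aim2*, a sensor of cytosolic DNA, at 1.3, 0.954 and 0.97 CPM in saline and 2.47, 2.53 and 3.38 CPM in microbead retinas (log2 fold change 1.37, SE 0.39, edgeR adjusted p = 0.0474). *Aim2* missed the threshold whichever 1 of the 6 libraries was left out (adjusted p = 0.0509 to 0.177). Among 54 other interferon-stimulated genes, edgeR called 0 in either direction, and the median was -0.34. Of these, 11 (beside 31.4% of all tested genes) had an unadjusted p-value under 0.05, DESeq2 called 9 (beside 20.2%) and limma-voom called 0 (beside 12.5%). Saline replicate 1 was more than 2-fold above both other saline libraries in 29 of them. Without it, 4 of 51 were higher and 0 lower, with a median of 0.30. These 4, named after their values were seen, were *Oasl2*, *Rtp4*, *Parp12* and *Samhd1*. *Oasl2*, of the oligoadenylate synthetase family, was at 72.4, 18.4 and 27.7 CPM in saline and 46.4, 45.8 and 37.4 CPM in microbead retinas, and *Parp12*, an antiviral ADP-ribosyltransferase, at 18.3, 12.4 and 10.9 CPM and 19.8, 27.2 and 24.6 CPM. *Oasl2* overlapped between the groups through saline replicate 1, and *Parp12* did not overlap. None of these 4 passed in the other 5 fits with 1 library left out (adjusted p at least 0.0778). In those fits, 3 other genes of the list, all GTPases induced by interferon gamma, were called lower: *Irgm1* without saline replicate 2 (log2 fold change -1.77, adjusted p = 0.0472), and *Igtp* (-1.97, adjusted p = 0.0297) and *Irgm2* (-1.60, adjusted p = 0.0449) without saline replicate 3. Their log2 fold changes without saline replicate 1 were -0.84, -0.77 and -0.47, and none of the 3 passed.

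**Figure D4:**
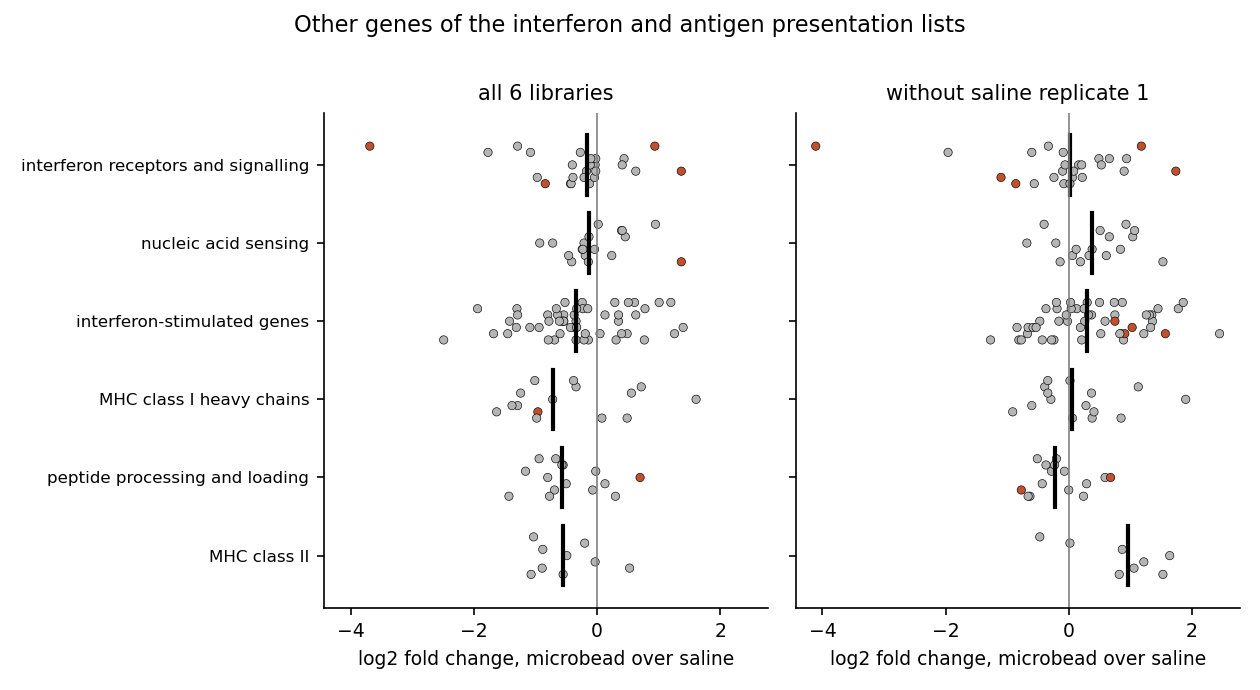
Each point is 1 tested gene of the list on the vertical axis, placed by its log2 fold change of microbead over saline retinas from edgeR (horizontal axis), fitted on all 6 libraries (left) and without saline replicate 1 (right), with the 9 genes left out. Orange points had an adjusted p-value under 0.05 and black bars are list medians, which run from -0.72 to -0.13 on the left and from -0.23 to 0.97 on the right.

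Among 15 other MHC class I heavy chain genes, 0 were higher, 1 was lower and 14 did not pass (median -0.72, and 0.06 without saline replicate 1). The call was *Fcgrt*, whose product is the neonatal Fc receptor, a class I-like chain that binds IgG and needs β2-microglobulin, at 12.8, 9.21 and 13.9 CPM in saline and 7.77, 5.42 and 5.2 CPM in microbead retinas. It fell by 0.96 on the log2 scale (SE 0.27, edgeR adjusted p = 0.0486), and missed the threshold whichever 1 of the 6 libraries was left out (0.0571 to 0.165). Of 15 peptide processing and loading genes, 1 was higher, 0 lower and 14 did not pass (median -0.57, and -0.23 with 1 higher and 1 lower without saline replicate 1). *Psme3*, the gamma subunit of the nuclear proteasome activator, was at 102, 99 and 112 CPM in saline and 170, 164 and 176 CPM in microbead retinas (log2 fold change 0.70, SE 0.15, adjusted p = 0.0237). With 1 library left out, *Psme3* passed without saline replicate 1 or 3, and missed the threshold in the other 4 fits (adjusted p = 0.0508 to 0.121). *Psme1* and *Psme2*, which encode the interferon-inducible activator subunits, did not pass (adjusted p = 0.84 and 0.733). Of 9 MHC class II genes, 0 passed in either direction with all libraries (median -0.55). Without saline replicate 1, 0 of the 8 that could be tested passed, with a median of 0.97 over those 8. DESeq2 and limma-voom also called 0 of the class II genes, and 0 had an unadjusted p-value under 0.05.

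Sums of several marker lists stood apart in saline replicate 1. The summed level of 20 microglia and macrophage markers was 424, 125 and 182 CPM in the saline replicates and 234, 212 and 103 CPM in the microbead replicates. Within each group, this sum ranked the libraries as *B2m* did. Between groups it did not, as saline replicate 1 had a higher sum than microbead replicate 1 but a lower *B2m* level (168 against 260 CPM). The defining markers *Cx3cr1*, *Tmem119* and *P2ry12* were above 0 in every library, and of the 20 markers edgeR called 0 higher and 1 lower. That call was lost whichever 1 library was left out, and without saline replicate 1 another marker, *Cd68*, was called higher. The summed MHC class II level was 142, 14.2 and 24 CPM in saline and 52.3, 56.3 and 8.19 CPM in microbead retinas, and that of 11 gliosis markers was 1417, 340 and 658 CPM and 415, 551 and 363 CPM. Both lists were highest in saline replicate 1. Lymphocyte and granulocyte markers summed to 11.8 CPM in saline replicate 1 and to 1.26 to 4.33 CPM in the other 5 libraries, with 4 of 16 markers high enough to test and 0 past the threshold. Retinal ganglion cell markers were lowest in saline replicate 1, with a sum of 447 CPM, and at 1036 to 1494 CPM in the others. Of these 12 markers edgeR called 0 with all libraries and, without saline replicate 1, 0 higher and 2 lower, *Slc17a6* and *Nefl*. In bulk retina, fewer cells of a type and less RNA per cell cannot be told apart, and the part of microglia and other immune cells in the levels of the 9 genes was not tested.

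Endothelial and Müller glia markers moved in another way. Of 11 endothelial markers, 0 were higher and 5 lower (45.5%, beside 12.8% of all tested genes in either direction). Among them were *Vwf*, which encodes von Willebrand factor (log2 fold change -1.73, adjusted p = 0.0227 from edgeR), and *Tie1*, an endothelial receptor (-1.23, adjusted p = 0.0262). The counts were the same, 0 and 5, without saline replicate 1, where 15.1% of all tested genes were called. The 11 markers summed to 506 to 695 CPM in saline and 302 to 454 CPM in microbead retinas. Of 12 Müller glia markers, 0 were higher and 4 lower (33.3%), among them *Sox9* (-1.46, adjusted p = 0.0373) and *Crym* (-1.41, adjusted p = 0.0387), and without saline replicate 1 0 were higher and 3 lower. The part of these cells in the levels of the 9 genes was not tested. With 1 library left out, edgeR called 0 to 5 of the endothelial and 0 to 3 of the Müller glia markers. It called 0 in both lists without microbead replicate 1, without microbead replicate 3 and with a replicate block. Single calls among these markers depended on the library left out, with adjusted p-values of 0.0219 to 0.11 for *Vwf*, 0.0239 to 0.0924 for *Tie1*, 0.0274 to 0.147 for *Sox9* and 0.0297 to 0.156 for *Crym*, each highest without microbead replicate 3 except that of *Tie1*. Rod markers summed to 64726 to 96706 CPM in all libraries, as retina should hold, with 1 higher, *Pdc* (1.01, adjusted p = 0.0362), and 1 lower, *Nrl* (-0.97, adjusted p = 0.0192), of 12. With 1 library left out, these adjusted p-values ran from 0.016 to 0.122 for *Pdc* and from 0.0206 to 0.0883 for *Nrl*.

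The calls depended on the filter on low counts as well as on saline replicate 1. With no filter, edgeR called 4 of the 9 genes, where 11.9% of all genes were called: *B2m* (adjusted p = 0.00301) and *Stat2* (0.027) higher, and *H2-K1* (0.0143) and *H2-D1* (0.0104) lower. In that fit, which includes the near-empty genes, the prior degrees of freedom, which say how strongly each gene's spread is drawn towards the common trend, were 77.1 and not 5.59. With edgeR's newer quasi-likelihood method, 0 of the 9 were called with the filter, where 2570 of 17707 tested genes were. Without the filter that method also called 0 of the 9, where 2857 of 31169 genes were called.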

How the data were processed

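Whole-retina poly(A) libraries of 3 saline-injected and 3 microbead-injected eyes were compared, with groups from the sample records. Per the study's methods and notes, the authors aligned paired reads with STAR 2.5.3a to GRCm38.p5 with GENCODE vM12, counted them per gene with featureCounts 1.15.2, and deposited raw counts per gene. The deposited table also holds the authors' DESeq2 1.14 comparison (fold changes and p-values), which was not used. Multi-mapping and strand settings of the counting are not given in the sources used here.

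Low-count genes were removed by filterByExpr at its defaults of 10 counts and 15 in total, and TMM factors set the library sizes. The 2 groups were then compared in R 4.3.3 with edgeR 4.0.16 (quasi-likelihood, two-sided), and p-values of all 17707 tested genes were adjusted together by Benjamini-Hochberg, at 0.05. CPM are counts per 1000000 of the scaled library size, and CPM per kb divide by the merged exon length. An exact permutation test of 3 against 3 cannot go below p = 0.1 and was not used. A floor of 3 counts was 0.0622 to 0.217 CPM, and covers counting error only. No library was a copy of another: within a group, chi-square per degree of freedom was 20.1 to 109.

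Positions came from GENCODE vM21 (99.5% of genes matched) and promoters from RefSeq (GRCm38.p6). The genes named were the 9, *Ifit3b* and, per list, up to 4 pathway or 2 marker genes with the largest change among those past the threshold, at a mean of at least 1 CPM and without overlap, apart from some genes that are not reported here. All other genes were named after their values were seen. The 9 genes and the lists were chosen with earlier results of these data known. Alternatives were DESeq2 1.42.0, limma-voom (limma 3.58.1), scaling by RLE or upper quartile, exclusion of mitochondrial genes from library sizes, other filters, thinning to 13574949 counts, a replicate block, a threshold of 0.01, each library left out, and, added after seeing the data, edgeR's newer quasi-likelihood method. The steps were tested on simulated data.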

Additional observations from a re-analysis of the deposited data

How the results depend on the processing

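Of 153 estimates for single genes of the 9 under the alternatives, 140 kept their direction and their side of the threshold, 7 gained a call and 6 changed sign. With all 6 libraries, 95 of 99 stayed the same and the 4 that gained a call did so without the filter on low counts. Leaving out 1 library moved the count of called genes from 2261 to between 46, without microbead replicate 3, and 2621, without saline replicate 1 (293 without saline replicate 2, 748 and 768 without microbead replicates 1 and 2). It moved the count among the 9 from 0 to between 0 and 3, and among the pathway lists from 7 to between 0 and 11. The sign changed for 5 of the 9 genes when 1 library was left out, with log2 fold changes from -1.24 to 0.18 for *H2-K1*, -0.25 to 0.84 for *Irf9*, -0.06 to 0.54 for *Irf7*, -0.62 to 0.07 for *Ifit3* and -1.02 to 0.20 for *Bst2*. The highest values came without saline replicate 1, and the lowest of *Irf9* and *Irf7* without saline replicates 3 and 2. Without the filter, 3720 genes, 4 of the 9 and 26 pathway genes were called. The newer quasi-likelihood method without the filter, added after seeing the data, gave 2857 genes, 16 pathway genes and 0 of the 9. DESeq2 called 3582 genes, 0 of the 9 and 22 pathway genes. At an adjusted p-value under 0.01, edgeR called 87 genes, 0 of the 9 and 0 pathway genes. Deviations of same-numbered libraries of the 2 groups had correlations of -0.04, 0.14 and 0.01, beside -0.20 to 0.14 for libraries with unlike numbers. Because injections were bilateral, a saline and a microbead retina were not the 2 eyes of the same mouse. With 3 libraries a group, such values cannot show whether the samples were paired in their handling. A replicate block gave 905 genes, 0 of the 9 and 2 pathway genes. Beyond these, the cause of each move was not tested. With 3 libraries a group, a p-value that missed the threshold does not show that the levels were equal. The lowest count of any of the 9 genes in any library was 52.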

Other observations

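Other marker lists were read beside the 9 genes. Of 12 retinal ganglion cell markers, edgeR called 0, with 2 at an unadjusted p-value under 0.05, and DESeq2 and limma-voom also called 0. Of 11 pigment epithelium and choroid markers, edgeR and limma-voom called 0 and DESeq2 called 1, and their summed level was 16.7, 64.6 and 271 CPM in saline and 156, 129 and 144 CPM in microbead retinas, so that it was lowest in saline replicate 1. Of 6 red blood cell markers, edgeR, DESeq2 and limma-voom called 0, with 0 at an unadjusted p-value under 0.05 and sums of 26.2 to 59.4 CPM in saline and 31.3 to 72.6 CPM in microbead retinas. Of 11 gliosis markers, edgeR called 0 higher and 1 lower with all libraries, and 2 higher and 1 lower without saline replicate 1. The lower call in both fits was *Socs3*, which is also the *Socs3* call of the receptor and signalling list. It was at 228 CPM in saline replicate 3 and did not pass without that library (edgeR adjusted p = 0.101).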
